A study of Drosophila melanogaster with 19 samples.

Results

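The transfer RNA genes of the Drosophila melanogaster nuclear genome were taken as all genes of the dm6 assembly (release 6) on chromosome arms whose symbol starts with tRNA. There were 295 of them among 17807 genes on 7 chromosomes, 290 annotated as tRNA genes and 5 as tRNA pseudogenes. The rule used the names and positions of the genes, not the measurements. Of the 295 genes, 100 lay on 2R, 79 on 3R, 49 on 3L, 41 on 2L and 26 on X, and none on 4 or Y.

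AdMTase-seq measures which DNA an enzyme that places m6A (methyl groups on adenine) can reach in isolated nuclei. Here nuclei of S2-DSRC cells, a line derived from Drosophila embryos (spelled S2-DRSC in the series' own design), were incubated with enzyme for 20 min at 37 °C, and short DNA fragments that carry m6A were recovered with an antibody. The series holds 19 libraries, each with 1 peak list called at an FDR of 5% per the file names. Peaks give no RNA level, so markers of the cell line were not checked.

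The 17 treated libraries came from 5 enzymes. Hia5 was used at 0.6, 2, 6, 20, 60 and 200 U, and the doses of EcoGII were 0.6, 2 and 6 U, as were those of Btr192IV. EcoGI was used at 0.6 and 2 U. Hin1523 had a single dose of 2 U. Hia5 at 2 U and at 6 U had 2 libraries each, and every other dose had 1. The controls were 1 immunoprecipitation from cells labelled untreated and 1 DNA input. The labels do not say whether the replicates came from separate cultures, so the spread between them may be technical. The treated lists held 772 (Hia5 60 U) to 13395 peaks (EcoGII 6 U), the untreated list 1974 and the input list 32. A relative depth, taken from the smallest step between peak heights, ran from 7.28 (Hia5 0.6 U) to 25.5 (EcoGII 6 U) in treated libraries. The value for untreated cells was 11.3, and the input had 0.673.

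A tRNA gene is transcribed by RNA polymerase III from a promoter inside the gene itself. The factor TFIIIC binds the internal A box and B box and brings TFIIIB to the DNA just before the gene, and TFIIIB then recruits the polymerase. The genes are short, many are near-identical copies, and many stand in clusters. In this assembly their length ran from 71 to 186 bp with a median of 73 bp, and they fell into 22 isotypes, named for the amino acid the tRNA carries. By name they formed 89 families of copies, of which 43 held a single gene. Families of 2 or more held 252 genes, and short reads inside such genes may not belong to 1 copy. How the authors treated those reads is not given in the sources used here, and its part in the results was not tested.

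A gene was counted as having a peak when at least 1 bp of a peak lay within 500 bp of the gene, which for the median gene is a window of 1073 bp. Each share was read beside 3 others from the same list: the ends of 13946 protein-coding genes, with windows of 1073 bp; 717 other genes of at most 200 bp, with 500 bp on either side; and all positions of the chromosomes, which is the share of every possible window of 1073 bp that touches a peak. The last was weighted by the chromosomes on which the tRNA genes lie, except where positions are split by distance to a gene end. Among the 717 are 96 genes of 5S rRNA, a small ribosomal RNA. None of the 96 had a peak in any library, which lowers the share of this set. All shares below are descriptions of these libraries, and no test was run over the tRNA genes as a set. The 95% Wilson intervals in brackets cover counting error only, and neighbouring tRNA genes that share a peak are not independent.

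Peaks at tRNA genes were most frequent with the lowest dose of Hia5. In the Hia5 0.6 U library 73 of 295 tRNA genes (24.7%, 20.2 to 30.0) had a peak within 500 bp. In that list 16.3% of protein-coding gene ends, 10.0% of the other short genes and 6.44% of all positions had one. In 41 genes (13.9%) a peak lay over the tRNA gene itself. The tRNA share was thus 3.84 times the share of all positions and 1.52 times that of gene ends, in the treated library with the lowest relative depth. The order against gene ends rested on low peaks. Among the 50% highest peaks of the list the tRNA share was 5.08%, which is 3.05 percentage points below gene ends, and among the 772 highest it was 0.339%, or 0.353 points below. Over the whole list it was 8.49 points above.

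Higher doses of Hia5 marked fewer tRNA genes than 0.6 U did. At 2 U 28 genes (9.49%, 6.65 to 13.4) and 19 genes (6.44%, 4.16 to 9.84) had a peak in replicates 1 and 2, beside 9.46% and 9.65% of gene ends and 4.57% and 4.88% of all positions. At 6 U there were 9 genes (3.05%) and 2 genes (0.678%), beside 2.91% and 2.16% of gene ends. At 20 U 3 genes (1.02%) had a peak, a share between those of the 6 U replicates, beside 2% of gene ends. At 60 U none of the 295 had one, where a count of 0 allows a share of up to 1.02% (3 of 295 genes), beside 0.459% of gene ends. At 200 U, where the list was longer again with 4054 peaks, 3 genes (1.02%) had one, beside 2.62% of gene ends and 2.93% of all positions. The share thus lay above that of all positions at 0.6 and 2 U and in replicate 1 at 6 U, and below it in replicate 2 at 6 U and at every higher dose.

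The doses with replicates did not overlap. At 6 U the share averaged 1.86% ± 1.68 and at 2 U it averaged 7.97% ± 2.16 (SD over 2 libraries), so 6 U minus 2 U came to -6.10 percentage points. It was -6.44 points within replicate 1 and -5.76 within replicate 2. With 2 libraries a dose no test was run, and in lists cut to the 772 highest peaks the difference was 0. The library numbers in the labels fall into 2 ranges. In the first range the Hia5 share was 9.49, 3.05, 1.02, 0 and 1.02% at 2, 6, 20, 60 and 200 U, and in the second it was 24.7, 6.44 and 0.678% at 0.6, 2 and 6 U, so the decline between 0.6 and 6 U was present within the second range.

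EcoGII gave the next highest shares, and its 3 doses had overlapping intervals. A peak was present at 34 tRNA genes (11.5%, 8.37 to 15.7) at 0.6 U, at 44 (14.9%, 11.3 to 19.4) at 2 U and at 42 (14.2%, 10.7 to 18.7) at 6 U. Gene ends had 12.6, 14.9 and 14.2% in the same 3 lists, and each of these lay inside the interval of the tRNA share. All positions had 5.45, 6.43 and 10.03%, the last in the longest and deepest list. Peaks over the gene itself were found at 12, 22 and 16 tRNA genes.

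Hin1523 at 2 U had a peak at 24 tRNA genes (8.14%, 5.53 to 11.8), beside 9.36% of gene ends and 4.54% of all positions. The remaining enzymes reached few. Btr192IV had a peak at 8, 5 and 5 genes (2.71, 1.69 and 1.69%) at 0.6, 2 and 6 U, beside 5.03, 3.8 and 1.14% of gene ends. EcoGI had one at 6 genes (2.03%) at 0.6 U and 7 genes (2.37%) at 2 U, beside 4.28 and 3.83% of gene ends. At 0.6 U the enzymes thus ranked Hia5, EcoGII, Btr192IV and EcoGI, but each has 1 library there, units of different enzymes need not be comparable, and the intervals of Btr192IV (1.38 to 5.26) and EcoGI (0.935 to 4.37) overlap.

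The background was low. In untreated cells 1 tRNA gene (0.339%, 0.0599 to 1.89) had a peak, beside 0.81% of gene ends and 1.38% of all positions. In the DNA input no tRNA gene had one, where a count of 0 again allows up to 1.02%, beside 0.00359% of gene ends. The input held only 32 peaks, so its empty count limits little. Over the 17 treated libraries the tRNA share lay above that of all positions in 9 and below it in 8, above gene ends in 6 and above the other short genes in 8. The median share was 2.71% at tRNA genes, 4.28% at gene ends and 2.93% at the other short genes.

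**Figure D1:**
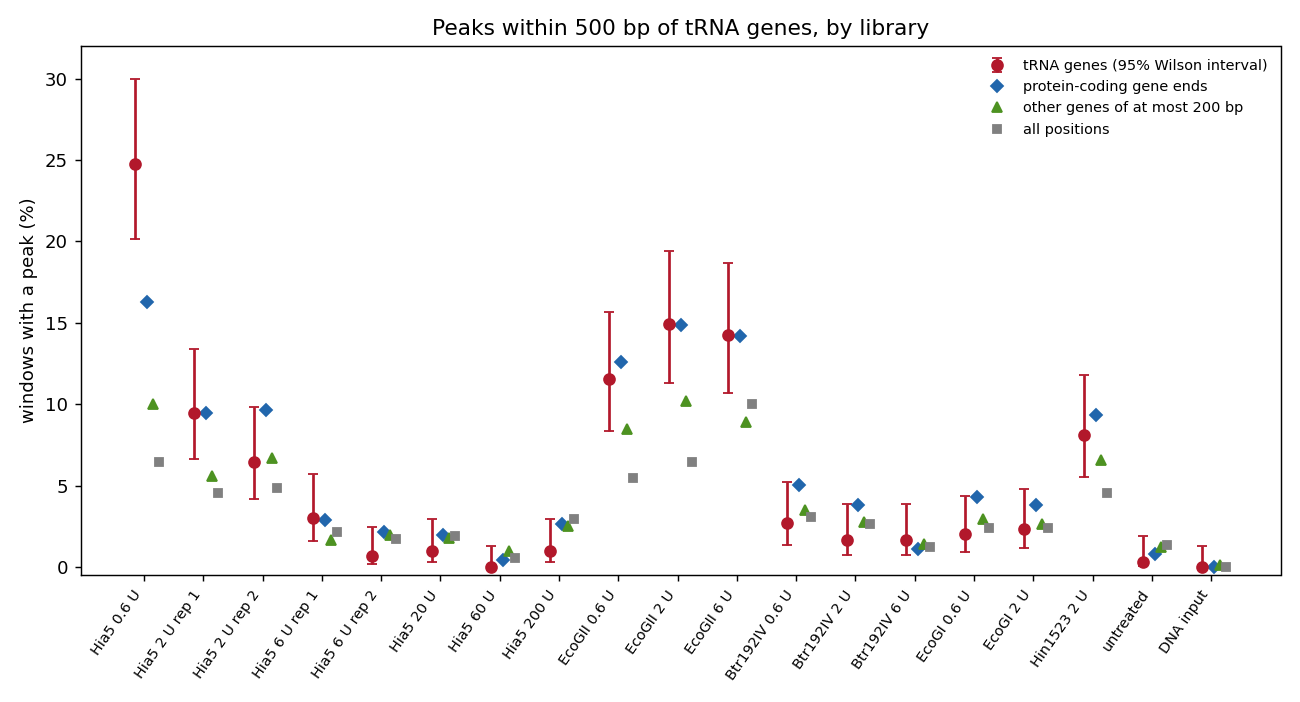
Share of windows with a peak (%, vertical axis) in each of the 19 libraries, for tRNA genes (red, with 95% Wilson intervals), protein-coding gene ends (blue), other genes of at most 200 bp (green) and all positions (grey). The tRNA share is 24.7% at Hia5 0.6 U, above the 3 others, lies close to gene ends in the EcoGII libraries, and is 1.02% or less at Hia5 20 U and above.

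In the libraries that marked the most tRNA genes, the median peak there stood below the middle of its list, by little at EcoGII 6 U. The peak heights are the authors' signal and were used only as ranks within a list. The median peak at a tRNA gene stood at the 34.4th percentile of height at Hia5 0.6 U, the 19.8th at EcoGII 0.6 U, the 32.9th at EcoGII 2 U, the 47.5th at EcoGII 6 U and the 30.1st at Hin1523 2 U. At Hia5 2 U it was 44.4 and 42.5 in replicates 1 and 2. In libraries with few such peaks the medians went both ways. They were 58.5 and 68.2 in the Hia5 6 U replicates (7 and 2 peaks), 60.2 at Hia5 20 U (3 peaks) and 79.1 at Hia5 200 U (3 peaks). Btr192IV had 45.9, 39.5 and 16.4 at 0.6, 2 and 6 U (6, 4 and 4 peaks), and EcoGI had 34.4 at 0.6 U and 67.9 at 2 U (4 and 5 peaks). At Hia5 0.6 U the peaks at tRNA genes had a median width of 203.5 bp, against 216 bp over the whole list.

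In the Hia5 0.6 U and EcoGII 2 U libraries peaks were most frequent at the tRNA gene itself. At the centre of the gene 9.49% of tRNA genes were under a peak at Hia5 0.6 U, and 10.5% at 20 bp from it, the highest value within 2 kb. Farther than 1.5 kb out the mean was 1.81%. At protein-coding gene ends of the same library 7.42% were under a peak at the end itself and 1.65% farther than 1.5 kb out. At EcoGII 2 U the values were 6.10% at the tRNA centre and 1.66% farther out, beside 6.48% at gene ends and 1.54% farther out. At EcoGII 6 U 4.41% of tRNA centres were under a peak, and no value within 2 kb was higher. Farther out the mean there was 1.56%, beside 3.95% at gene ends and 2.12% farther out from these. At Hia5 2 U, 2.71% and 1.69% of tRNA centres were under a peak in replicates 1 and 2, beside 3.74% and 3.31% of gene ends, and in replicate 2 that value was matched farther out. The highest value lay 80 bp to the left at EcoGII 0.6 U (4.07%, beside 2.03% at the centre) and at Hia5 2 U replicate 1 (3.39%). Hin1523 had 1.36% at the centre and its highest value, 3.39%, 60 bp to the left. The gene table holds no strand, so left and right are in genome order and not relative to transcription.

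**Figure D2:**
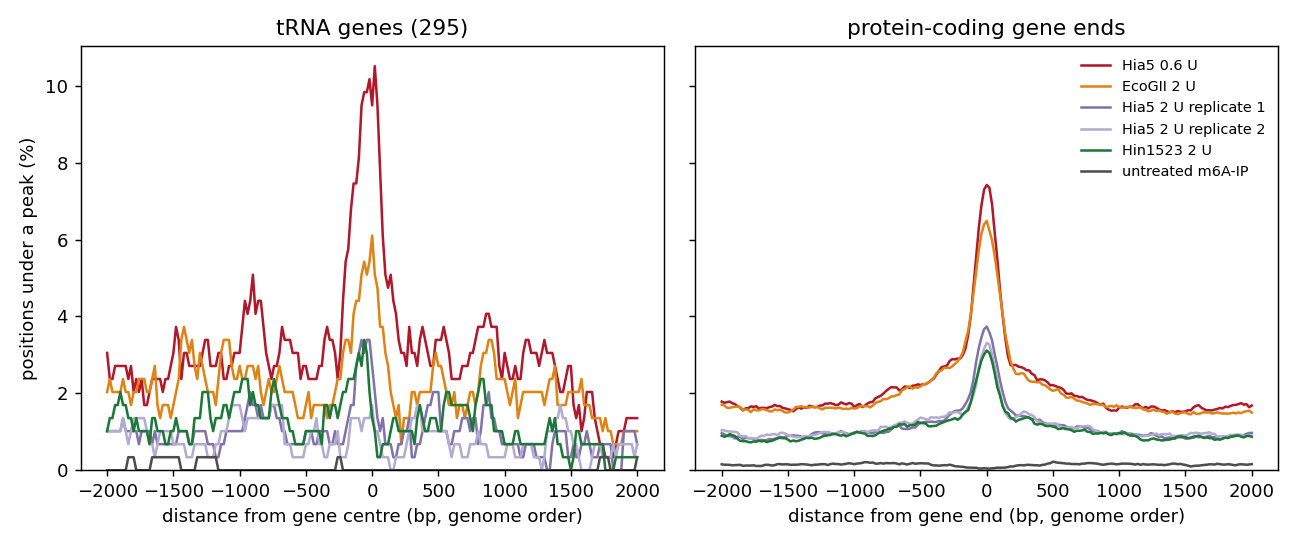
Share of positions under a peak (%, vertical axis) by distance in bp, from the centre of the 295 tRNA genes (left panel) and from protein-coding gene ends (right panel), for 5 treated libraries and the untreated library. The Hia5 0.6 U line reaches 10.5% near the tRNA centre and 7.42% at gene ends, and the untreated line stays at or below 0.339% at tRNA genes.

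Many tRNA genes lie close to a protein-coding gene, and a peak there can be the peak of that gene's end. Of the 295, 71 lay within 500 bp of a protein-coding gene end, 118 inside a protein-coding gene but farther from its ends, and 106 between genes. Positions as near or as far were counted over the 7 chromosomes together, without weights. At Hia5 0.6 U 22 of the 71 near genes had a peak (31.0%, 21.4 to 42.5), against 15.1% of all positions as near to an end. Of the 224 farther ones 51 had a peak (22.8%, 17.8 to 28.7), against 4.57% of all positions as far away. The distance from the background was therefore greater, as a ratio, away from gene ends.

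In the other libraries with many tRNA peaks the share among near genes was close to or below that of positions placed alike, and the share among far genes was above it. At EcoGII 0.6 U 6 of 71 near genes (8.45%) had a peak beside 11.9% of such positions, and 28 of 224 far genes (12.5%) beside 3.99%. At EcoGII 6 U it was 8 near genes (11.3% beside 13.7%) and 34 far genes (15.2% beside 8.71%). At EcoGII 2 U 10 of 71 near genes (14.1%) had a peak beside 13.9% of such positions, and 34 of 224 far genes (15.2%) beside 4.64%. At Hin1523 2 U 2 near genes (2.82%) had one beside 8.96%, and 22 far genes (9.82%) beside 3.52%. At Hia5 2 U replicate 1 the counts were 3 near genes (4.23% beside 9.16%) and 25 far genes (11.2% beside 3.45%). In replicate 2 they were 5 near genes (7.04% beside 9.23%) and 14 far genes (6.25% beside 3.85%). The intervals of the near genes are wide, as the plot of near and far genes shows.

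Peaks shared with a protein-coding gene end were a minority. Over the 17 treated lists, 238 of 80054 peaks (0.297%) lay at a tRNA gene, 124 of them over the gene. Of the 238, 59 (24.8%) also lay within 500 bp of a protein-coding gene end, whereas 31.6% of all treated peaks did. At Hia5 0.6 U 18 of 56 such peaks were shared (32.1%, against 44.2% of the whole list), at EcoGII 2 U 12 of 35 (34.3% against 40.8%), and at Hin1523 2 U 2 of 20 (10.0% against 36.1%). Of the tRNA genes, 68 had at least 1 treated peak that lay at no protein-coding end. Ends here are the outermost start and end of each protein-coding gene. Starts of transcription inside a gene, and ends of non-coding genes, were not counted. The shared peaks reached the ends of 21 protein-coding genes. Fib, which encodes the nucleolar methyltransferase fibrillarin, shared them in 13 treated libraries, and CG4914 in 6.

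**Figure D3:**
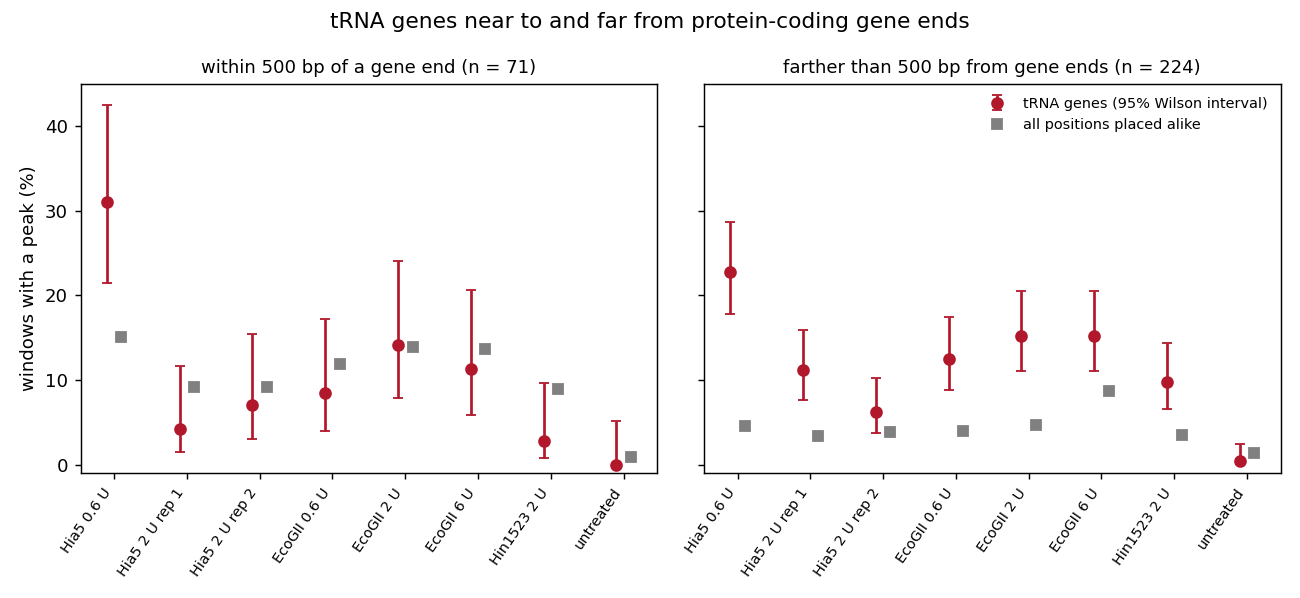
Share of windows with a peak (%, vertical axis) for tRNA genes (red, with 95% Wilson intervals) and for all positions placed alike (grey), within 500 bp of a protein-coding gene end (left panel, 71 genes) and farther away (right panel, 224 genes), in 7 treated libraries and the untreated library. The grey shares are not weighted by chromosome. Away from gene ends the red points lie above the grey ones in the 7 treated libraries, by 22.8% against 4.57% at Hia5 0.6 U.

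Across libraries, 94 of the 295 tRNA genes (31.9%) had a peak in at least 1 treated library and 201 had none. By the same count 26.4% of protein-coding gene ends and 17.4% of the other short genes had a peak in at least 1. Of the 94, 38 had a peak in exactly 1 treated library, 32 in 2 to 4, 18 in 5 to 9 and 6 in 10 or more. None had one in all 17, and the most was 15. A peak lay over the gene itself in some treated library for 55. The Hia5 0.6 U library alone marked 24 of the 38, and without it 70 genes had a peak in a treated library. The shares of 31.9, 26.4 and 17.4% include that library. For gene ends and other short genes neither the spread over libraries nor the count without Hia5 0.6 U is given. These counts are therefore not read as particular to tRNA genes.

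Most tRNA genes marked in the other libraries with many tRNA peaks were also marked at Hia5 0.6 U, and gene ends did the same. Of the 34 genes of EcoGII 0.6 U, 33 (97.1%) also had a peak at Hia5 0.6 U, which is 45.2% of the 73 genes there. The shared genes were 39 for EcoGII 2 U (88.6% of its genes, 53.4% of the 73), 29 for EcoGII 6 U (69.0% and 39.7%) and 20 for Hin1523 (83.3% and 27.4%). At gene ends the shares also marked at Hia5 0.6 U were 85.7% for EcoGII 0.6 U, 79.7% for EcoGII 2 U, 67.1% for EcoGII 6 U and 87.6% for Hin1523. These came to 66.5, 72.9, 58.6 and 50.4% of the gene ends of Hia5 0.6 U. The shared tRNA genes were 25 and 18 for the Hia5 2 U replicates (89.3 and 94.7% of their genes), beside 86.8 and 86.4% of gene ends. All 7 genes of EcoGI 2 U, all 6 of EcoGI 0.6 U and all 5 of Btr192IV 2 U were among the 73. Gene ends had 89.2, 93.7 and 86.8% there. At Btr192IV 0.6 and 6 U it was 7 of 8 and 4 of 5 genes, beside 87.4 and 73.5% of gene ends. In the Hia5 6 U replicates it was 7 of 9 and 2 of 2, beside 85.8 and 83.1%. At Hia5 20 and 200 U it was 2 of 3 and 1 of 3, beside 67.1 and 26.0%. The 3 EcoGII libraries shared 19 of the 63 genes marked in any of them. The Hia5 2 U replicates shared 13 of 34, and the 6 U replicates, with 9 and 2 genes, shared 2. These last overlaps are not given for gene ends, so they are not read as particular to tRNA genes.

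The gene marked most often was tRNA:Arg-ACG-1-1, in 15 of 17 treated libraries. It lies at positions 6142165 to 6142237 of 2R, inside EcR, the gene of the ecdysone receptor. Its peak did not cover the tRNA gene. In 15 libraries a peak ended 305 to 415 bp to its left, at the 98.4th percentile of height at Hia5 0.6 U, the 98.3rd at EcoGII 2 U and the 91.5th at Hia5 200 U, and its lowest percentile was 82.1, at Btr192IV 6 U. Hin1523 also had a low peak over the gene, at the 16.4th percentile. No peak lay in its window at EcoGII 0.6 U, at Hia5 60 U, in untreated cells or in the input. This was also the gene that remained when lists were cut to the 772 highest peaks in Hia5 0.6 U and EcoGII 2 U, where 1 tRNA gene each was left.

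A pair of serine tRNA genes stood next, in 13 treated libraries each. tRNA:Ser-TGA-2-1 lies at 23072581 to 23072662 of 2R, 247 bp from an end of Fib, and had a peak over the gene in 12 of the 13. The percentile of that peak was 84.3 at EcoGII 6 U, 76.2 at Hia5 0.6 U, 69.03 at Hin1523 2 U, 67.9 at EcoGI 2 U, and 39.5 at Btr192IV 2 U. Its neighbour tRNA:Ser-TGA-1-1 (23072019 to 23072100), 144 bp from an end of l(2)k09913, mostly took its count from the same peaks, with a peak of its own over the gene at Hia5 0.6 U and EcoGII 2 U. All 15 peaks of the pair lay within 500 bp of a protein-coding gene end. Each of these genes is the single copy of its family.

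tRNA:Tyr-GTA-1-8 was marked in 11 treated libraries and never over the gene. It lies at 8669081 to 8669174 of 3R, inside p and CG8036. The peak stood 247 to 391 bp to its right in each of the 11. Its percentile was 84.5 at Hia5 0.6 U, 80.9 at EcoGII 6 U and 39.5 at Btr192IV 2 U. Together with tRNA:Arg-ACG-1-1 it was 1 of 2 tRNA genes near the 1025 merged sites at which each of the 4 Hia5 libraries at 2 U and 6 U had a peak. None of those sites lay over a tRNA gene. The share of gene ends or of all positions near those sites is not given here. These counts are therefore not read as a result about tRNA genes.

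Other frequently marked genes did have the peak over the gene. tRNA:Ala-AGC-2-8 (3R, 17646683 to 17646755, between protein-coding genes) had a peak over it in each of its 7 libraries, namely Hia5 0.6 U, both Hia5 2 U, all 3 EcoGII and EcoGI 0.6 U, at percentiles of 24.9 to 66.7. tRNA:Ile-TAT-1-1 (3L, 769503 to 769600, 14014 bp from the nearest protein-coding end) had one in each of 6, at percentiles of 47.8 to 76.7. tRNA:Arg-CCT-1-3 (2R, 20000819 to 20000891) had one in each of 6, and tRNA:Arg-TCG-2-2 (X, 21232091 to 21232163, inside Mnr) in 6 of 10. These genes were therefore marked where no protein-coding gene end lay within 500 bp, by Hia5 and EcoGII, and all but tRNA:Ala-AGC-2-8 also by Hin1523.

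The initiator methionine gene tRNA:iMet-CAT-1-5 (3L, 14674344 to 14674415, inside ome and 123 bp from an end of CG4914) had a peak over it in 6 libraries, at percentiles of 7.45 to 38.7. Its neighbour tRNA:iMet-CAT-1-4 shared those libraries, with a peak over the gene in 1. All 8 peaks of this pair lay at the CG4914 end. The aspartate gene tRNA:Asp-GTC-2-1 (2L, 5240766 to 5240837) lies inside tkv, the gene of a BMP-type receptor, 21713 bp from the nearest protein-coding gene end. It had a peak over it in 4 of its 5 libraries.

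Pairs of neighbours within hts, which encodes an adducin, and at the arginine and alanine sites were counted from the same peaks. tRNA:Ser-CGA-1-4 had a peak over the gene in 5 of 8 libraries, and tRNA:Val-AAC-2-1, in the same gene, in 0 of the same 8. tRNA:Ala-AGC-2-7 likewise had 7 libraries and none over the gene, beside tRNA:Ala-AGC-2-8. tRNA:Arg-CCT-1-2 had 6 libraries and 1 over the gene, beside tRNA:Arg-CCT-1-3. In all, 18 genes had a peak in 6 or more treated libraries and 6 had one in exactly 5. Of these 6, tRNA:Asp-GTC-2-1 and tRNA:Arg-TCG-2-4 had the most libraries with a peak over the gene, and the 4 others were tRNA:Glu-TTC-1-5, tRNA:Asp-GTC-1-1, tRNA:Tyr-GTA-1-9 and tRNA:Ile-AAT-2-1Psi. Among the genes not yet described, tRNA:Leu-CAA-2-3 had 10 libraries (1 over the gene), tRNA:Ala-TGC-2-1 had 7 (2 over), tRNA:Asp-GTC-1-6 in Sema1a had 6 (2 over) and tRNA:Arg-TCG-2-4 in pyd had 5 (3 over).

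tRNA:Trp-CCA-2-5 was the one tRNA gene with a peak in untreated cells. It lies at 21181284 to 21181355 of 2R, inside Pu, the gene of GTP cyclohydrolase. The untreated peak ended 188 bp to its left and stood at the 67.6th percentile of its list. In 6 treated libraries a peak ended 18 to 184 bp to the left, at percentiles of 52.3 (Hia5 2 U replicate 2) to 91.1 (EcoGII 6 U), and none lay over the gene.

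**Figure D4:**
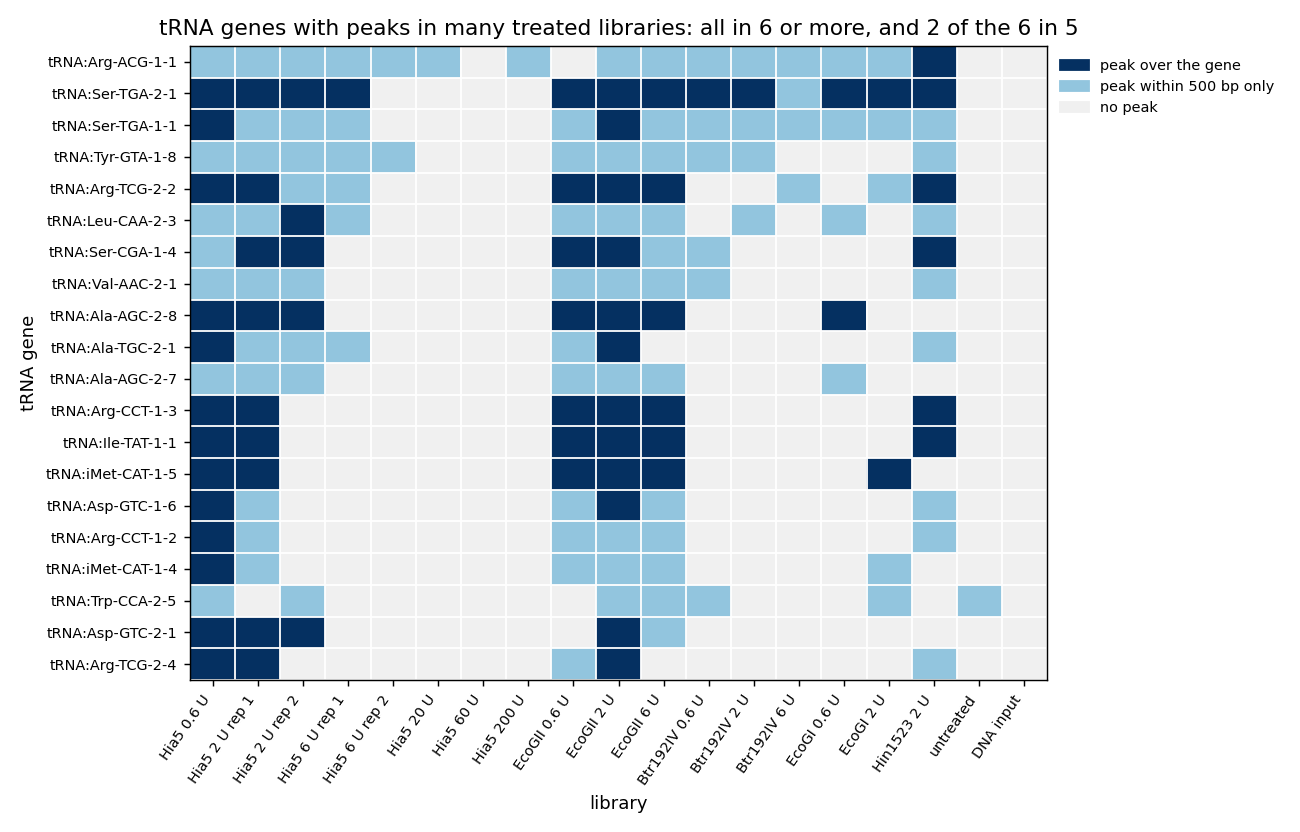
The 18 tRNA genes with a peak in 6 or more treated libraries, and 2 of the 6 with a peak in 5 (rows), in each of the 19 libraries (columns), with a peak over the gene (dark), within 500 bp only (light) or none (grey). Most dark cells stand under Hia5 0.6 U, Hia5 2 U replicate 1, EcoGII and Hin1523, tRNA:Arg-ACG-1-1 is light in 14 libraries and dark in 1, and only tRNA:Trp-CCA-2-5 has a cell under the untreated library.

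By isotype, the share of genes with a peak in any treated library ran from 0 to 75%. Isoleucine genes had 9 of 12, 8 of them at Hia5 0.6 U, and initiator methionine genes 4 of 6, all with a peak over the gene. Aspartate genes had 7 of 14, proline 8 of 17 and alanine 7 of 17. Glutamate had 6 of 21, arginine 7 of 26 and threonine 4 of 18. At the low end lysine had 1 of 19 (tRNA:Lys-CTT-1-1, in 2 libraries), histidine 1 of 6, cysteine 1 of 7, elongator methionine 0 of 6 and selenocysteine 0 of 1. The isotypes hold few genes, and many of these stand side by side and share peaks, so the order among them was not tested. The isoleucine count came mostly from 5 neighbours in ATP8A described below.

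Isotypes with similar counts differed in how many libraries marked them. The 7 arginine genes with a peak made up 47 pairs of a gene and a treated library, led by tRNA:Arg-ACG-1-1, and the 7 serine genes made up 42. The 8 proline genes made up 12 pairs, 7 of them at Hia5 0.6 U. The 4 asparagine genes made up 4, of which 3 were at EcoGII 6 U and none at Hia5 0.6 U. Glutamine (3 of 12), tryptophan (2 of 8) and cysteine had no gene with a peak over it.

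**Figure D5:**
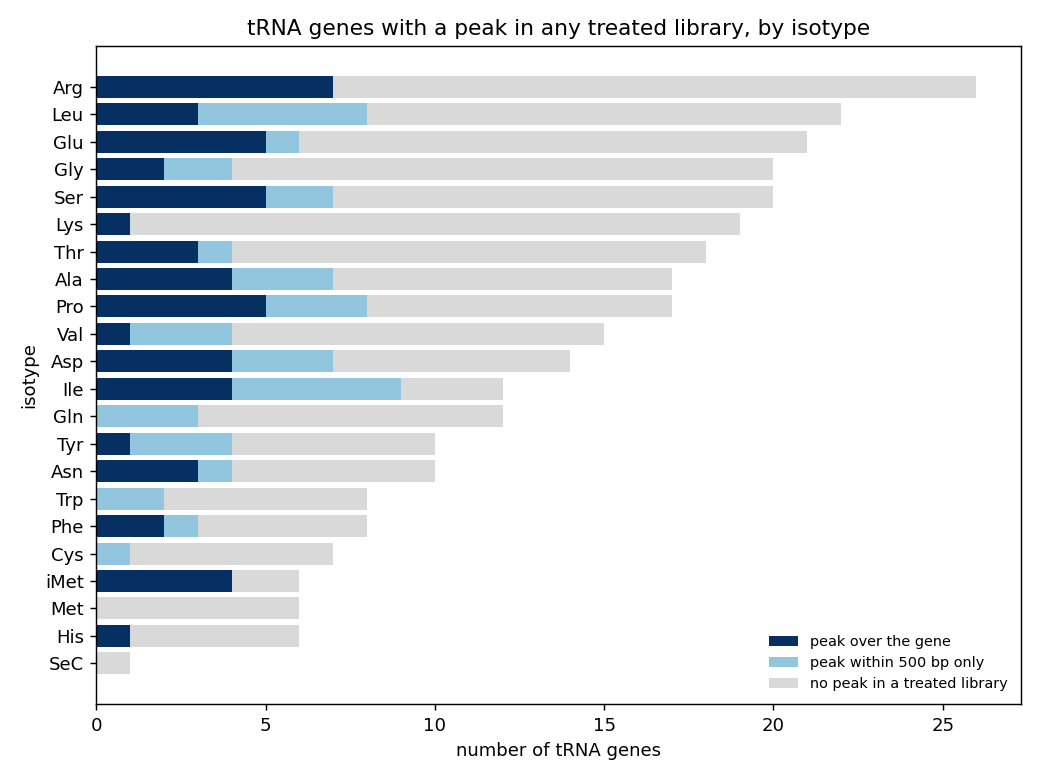
Number of tRNA genes of each isotype (horizontal axis), split into those with a peak over the gene in any treated library (dark), within 500 bp only (light) and with none (grey). Isoleucine has 9 of 12 with a peak and initiator methionine 4 of 6, while lysine has 1 of 19 and elongator methionine 0 of 6.

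Clusters were formed from tRNA genes at most 5 kb apart, which gave 69 clusters of 2 or more with 218 genes, and 77 single genes. A peak was present in some treated library at 36 of the 69 clusters. Of the genes in clusters of 2 to 4, 52 of 140 (37.1%) had a peak in any treated library, against 23 of 78 (29.5%) in clusters of 5 or more and 19 of 77 single genes (24.7%). At Hia5 0.6 U the counts were 41, 19 and 13. At Hia5 2 U none of the 78 genes in clusters of 5 or more had a peak in either replicate. In replicates 1 and 2, 23 and 17 of the 140 genes in clusters of 2 to 4 did, and 5 and 2 of the 77 single genes. The 78 genes stand in only 11 clusters, and neighbours are not independent.

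The 11 large clusters differed among themselves. On 2R, between 13430282 and 13432794 inside ATP8A, 6 of 7 genes (5 isoleucine AAT genes and tRNA:Leu-CAA-2-1) had a peak, all at Hia5 0.6 U and in no other library. On 2R between 19725620 and 19729353, 6 of 8 initiator methionine and glutamate genes had one, all 6 at Hia5 0.6 U and at EcoGII 0.6 U, 5 at EcoGII 6 U, 1 at EcoGII 2 U and 1 at Hin1523 2 U. All 6 had a peak over the gene in some library. In the leucine CAG cluster on 3L (8060214 to 8068290) 3 of 6 genes had one, all 3 at EcoGII 6 U, 2 of them also at Hia5 6 U replicate 1, and none at Hia5 0.6 U. The 3 marked genes lie outside protein-coding genes, and the 3 others inside Sarm.

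In the remaining large clusters with peaks the counts were smaller. They were 3 of 5 in the glutamine cluster in and beside CG4238 (2L, 2009155 to 2013250), 2 of 6 in the glutamate cluster on 3L (1397695 to 1401852), 2 of 7 in the arginine and serine cluster on X (14014814 to 14017284) and 1 of 5 in the histidine cluster on 2R (12333926 to 12336804).

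No treated library had a peak at 4 large clusters, which hold 34 genes. The first lies on 2R, between 6161535 and 6171759, with 11 arginine, asparagine, isoleucine and lysine genes, of which 8 are inside EcR. The gene marked most often, tRNA:Arg-ACG-1-1, also lies in EcR but outside this cluster. The others were 6 cysteine and lysine genes in Cht7 (3L, 3095737 to 3097590), 6 arginine and asparagine genes on 3R (8139533 to 8141042) and 11 alanine, proline, threonine and valine genes on 3R (17617761 to 17631750). Of the 11 genes of the last cluster, 9 lay within 500 bp of a protein-coding gene end.

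The counts by copy number depended on the library. Of the genes in families of 5 or more copies 63 of 189 (33.3%) had a peak in any treated library, 36 of them over the gene. In families of 2 to 4 it was 21 of 63 (33.3%), and for genes without a copy 10 of 43 (23.3%), 5 of them over the gene. At EcoGII 2 U the families of 5 or more had the lowest share, 23 of 189 (12.2%), against 14 of 63 (22.2%) in families of 2 to 4 and 7 of 43 (16.3%) without a copy. At Hin1523 2 U the counts were 9 of 189, 10 of 63 and 5 of 43, and at Hia5 0.6 U 46 of 189 (24.3%), 20 of 63 (31.7%) and 7 of 43 (16.3%). Over all pairs of a gene and a treated library, 5.26% had a peak in families of 5 or more, 8.40% in families of 2 to 4 and 7.25% without a copy. Genes longer than 90 bp, a length that includes genes with an intron, had 8 of 16 (50%), against 86 of 279 shorter ones (30.8%). By chromosome the share was 43.9% on 2L, 33.0% on 2R, 30.4% on 3R, 26.5% on 3L and 23.1% on X. Of the 5 pseudogenes, tRNA:Ile-AAT-2-1Psi (X, inside Mnr) had a peak in 5 treated libraries, never over the gene, and the others had none.

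Other genes transcribed by RNA polymerase III were counted in the same lists. Of 10 such genes other than tRNA and 5S rRNA genes (the U6 and U6atac, 7SL, 7SK, RNase P and RNase MRP RNA genes), 1 had a peak within 500 bp of its ends, snRNA:7SKa, an RNA that holds the elongation factor P-TEFb inactive. It had one in 14 treated libraries. Beside the 17.4% of other short genes and 26.4% of gene ends given above, 1 of 10 is too few to be read as a difference. Of 96 genes of 5S rRNA, the small ribosomal RNA made from a tandem repeat, none had a peak in any library. These 96 are near-identical copies and belong to the 717 other short genes. How reads from them were placed is not given in the sources used here.

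Protein-coding genes of the same pathway are given beside all protein-coding genes. Of 16 genes for RNA polymerase III and its factors, 11 had a gene-end peak in any treated library (68.8%), as had 9 of 18 aminoacyl-tRNA synthetase genes (50%), the enzymes that load tRNAs, against 6046 of all 13946 protein-coding genes (43.4%). At Hia5 0.6 U it was 6 of 16 and 8 of 18, against 29.4% of all. At EcoGII 2 U it was 5 of 16 and 6 of 18, against 26.9%. With lists this short these shares were not tested.

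In the first list Maf1, the repressor of RNA polymerase III, had a peak in 14 treated libraries and also in untreated cells. La, which binds the ends of new polymerase III transcripts, had one in 9, Bdp1, a TFIIIB subunit, in 6, and the polymerase subunit genes Polr3A in 6 and Polr3D in 5. In the second list GlnRS had one in 10, HisRS in 6, GluProRS and IleRS in 5 each, and CysRS, LysRS, MetRS and SerRS in 4 each. IleRS and HisRS load the isotypes with 9 of 12 and 1 of 6 marked tRNA genes, and LysRS the one with 1 of 19. AspRS, AlaRS and ArgRS had no peak in a treated library, and their isotypes had 7 of 14, 7 of 17 and 7 of 26. The other synthetases are not set beside their isotypes here, and no link between these counts was tested.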

How the data were processed

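The authors deposited 1 peak list for each library, called at an FDR of 5% per the file names. The deposited value of each peak is its height in the authors' tag-density signal, whose scale is not stated, so heights served only as ranks within a list. BWA 0.7.12 and SAMtools 1.2 are named in the submitters' processing notes, as is the fly build dm6. Not given in the sources used here are the peak caller, its filters and the handling of reads that match several copies. Heights were whole multiples of 1 step in each library, with a tolerance of 0.05 of a step, and the inverse step was taken as relative depth.

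Genes came from a RefSeq table of release 6 without strand, exons or sequence. The planned search for A box and B box motifs was therefore not run, and no sequence is printed. In place of random placements, every position of the chromosomes was counted. The genes named in full are the 20 with peaks in the most treated libraries (ties went to the gene with more peaks over it, then by position), any with an untreated peak or a site in all 4 Hia5 libraries at 2 U and 6 U, the clusters of 5 or more, and the 5 leading genes of each pathway list. The tRNA genes, the lists and these rules were chosen with earlier results of these data known. Calculations used Python 3.11.15, pandas 2.3.3, numpy 2.4.6 and scipy 1.17.1, and the overlap counts were checked on simulated intervals. Alternatives were other windows, overlaps, list lengths, cluster gaps and gene sets, and leaving out each replicate.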

Additional observations from a re-analysis of the deposited data

Results flagged for a closer look

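The change of the tRNA share between 0.6 and 2 U ran in opposite directions in pairs of enzymes, each with 1 or 2 libraries a dose, and none of these differences was tested. In Hia5 the share at 2 U was 16.8 percentage points lower than at 0.6 U (a difference of -16.8, from the mean of 2 libraries at 2 U), while in EcoGII it was 3.39 points higher and in EcoGI 0.339 points higher. In Btr192IV the difference was -1.02 points, opposite to EcoGII (3.39) and to EcoGI (0.339). The differences in EcoGI and Btr192IV come to 1 and 3 of the 295 genes. Gene ends moved the same way as tRNA genes in 3 of the 4 enzymes: 9.46 and 9.65% had a peak at 2 U against 16.3% at 0.6 U in Hia5, 14.9% against 12.6% in EcoGII, and 3.8% against 5.03% in Btr192IV. In EcoGI they moved the other way (3.83% against 4.28%). Among the 50% highest peaks of each list the Hia5 tRNA share was 3.22% at 2 U against 5.08% at 0.6 U, and among the 772 highest it was 0.339% at both. The lists of Hia5 held fewer peaks at 2 U than at 0.6 U and that of EcoGII held more (7969 against 6772), and the part of list length in these differences was not tested.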

How the results depend on the processing

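The tRNA shares moved with the window and, most of all, with how many of the lower peaks were kept. With windows of 200 bp, of 1 kb and of the gene alone, the share was 18.6, 33.2 and 13.9% at Hia5 0.6 U, 10.5, 21.4 and 7.46% at EcoGII 2 U, and 4.41, 12.2 and 3.22% as the Hia5 2 U mean. At Hia5 6 U the mean was 3.90% with 1 kb and 0.169% over the gene. With the 50% highest peaks of each list the share was 5.08% at Hia5 0.6 U, 5.08% at EcoGII 2 U and 3.22% at Hia5 2 U, and with the 772 highest peaks it was 0.339% in all 3. The tRNA share at Hia5 0.6 U minus that of gene ends reversed, to -3.05 points among the 50% highest and to -0.353 among the 772 highest. Its ratio to all positions was 4.86 with 200 bp, 7.97 over the gene, 1.39 among the 50% highest and 0.462 among the 772 highest. The number of genes with a peak in any treated library was 55 over the gene, 30 with the 50% highest peaks, 2 with the 772 highest, and 57 of 176 when genes with overlapping windows were counted as 1 locus.

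The difference of 6 U minus 2 U in Hia5 was -3.73 points with 200 bp, -8.31 with 1 kb, -3.05 over the gene, -1.86 with the 50% highest peaks and 0 with the 772 highest. Leaving out each replicate gave -7.63 to -4.58 for it, 0.678 to 3.05% for the 6 U mean and 6.44 to 9.49% for the 2 U mean. The replicate block, as differences within each replicate number, gave -6.44 and -5.76, and it changed no direction. The cause of these moves was not tested. Clusters with a peak were 32 of 71 at a gap of 1 kb and 35 of 62 at 20 kb. Each result was counted once for each alternative, so these counts are not counts of separate results. For the main results, 62 such values moved little, 30 moved and 2 reversed. For single libraries and genes 200 moved little and 108 moved.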
